A study of Mus musculus with 12 samples.

Results

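Cyclosporin A (CsA), a cyclic peptide immunosuppressant, was tested for its effect on messenger RNA in stimulated mouse CD4+ T cells. Libraries named CsA_PI in the sample titles, which received the drug and the stimulus, were set against libraries named ethanol_PI, which received the ethanol vehicle and the same stimulus. Both groups were total CD4+ T cells from the spleen of C57BL/6 mice, purified untouched, that is by taking other cells away, and the labels name no genetic change, age or sex. Treatment with 1 µM CsA or ethanol lasted 1 h and was followed by 2 h with 10 nM phorbol 12-myristate 13-acetate (PMA) and 1 µM ionomycin. The remaining groups, CsA_US and ethanol_US, had the same pretreatment without the stimulus and serve here as the resting levels. Each group held 3 libraries, so 6 of the 12 libraries of the series belonged to the stimulated comparison. The library labelled CsA_PI 2 did not show the stimulation response of its group, and for that reason the main values come from 5 libraries, CsA_PI 1 and 3 against ethanol_PI 1 to 3. Counts with all 12 libraries of the series, CsA_PI 2 included, are given beside the main ones where they differ. The change of a named gene with all 12 libraries is given where the gene was not called, or where the call differs or the fold differs by over 1.5 times.

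Calcium entering a T cell activates calcineurin, a phosphatase that strips phosphate from NFAT transcription factors and so lets them move into the nucleus, where they act on cytokine genes, often beside the AP-1 factors. CsA enters the cell, binds cyclophilins, and in that complex inhibits calcineurin. Ionomycin supplies the calcium in this stimulus, while PMA switches on protein kinase C, which feeds the MAP kinase and NF-kB branches, so the T cell receptor itself is bypassed.

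Reads were made with SMART-seq, a full-length cDNA method that does not keep the strand, so overlapping genes on opposite strands cannot be told apart. The stimulated libraries held 10523816 to 14564964 estimated counts. CPM is the count of a gene scaled to a common library size. On library totals, 3 counts, the limit that a count of 0 allows, corresponded to 0.162 to 0.285 CPM over the 12 libraries. The CPM levels of genes also carry TMM scaling factors, and on that scale the limits differ from these values. No library had molecular identifiers, so these limits cover counting error only. Whether the replicates were separate mice is not in the labels. Each p-value sets the difference of the groups against the spread between libraries, estimated over all 4 groups, and that spread may be technical. A lower level in bulk RNA can mean less RNA per cell or fewer cells that express the gene, and these cannot be told apart here. Of 10 CD4 T cell markers none was at 0, and their summed level was 6032 to 7681 CPM in ethanol_PI, 6449 and 6849 CPM in CsA_PI 1 and 3, and 4183 CPM in the library labelled CsA_PI 2. B cell markers, 12 in number and none at 0, summed to 703.8 to 1142 CPM in the 4 libraries numbered 2 and to 91.4 to 183 CPM in the other 8. The 15 myeloid and dendritic markers summed to 316 to 361 CPM against 95.1 to 134 CPM. The 10 CD8 T and NK cell markers summed to 208 and 164 CPM in CsA_PI 1 and 3, above the 116 to 154 CPM of ethanol_PI. Of them 2 (20%) were called higher, beside 10.4% of all genes tested. The 11 erythroid and platelet markers summed to 38.6 to 82.1 CPM in the 4 libraries numbered 3 and to 162 to 227 CPM in the others. With CsA_PI 2 left out, number 2 stood only on the vehicle side of the main comparison. Beyond the values without the 4 libraries numbered 2, the part of these marker levels in the results was not tested. The library labelled CsA_PI 2 held 62.2 CPM of the early response gene Egr1, against 1062 and 1201 CPM in CsA_PI 1 and 3 and a mean of 64.6 CPM at rest with vehicle. For Tnf it held 18 CPM, against 256 and 245 CPM and 18.2 CPM. The replicate block, an alternative with the library number as a term, is given where it changes a call or a count by over 1.5 times. Every called gene named below was also called in the same direction with all 12 libraries unless another value is given beside it. That fit shares every library but CsA_PI 2 with the main one, so it is no independent check.

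CsA changed 3393 of 15057 tested genes (22.5%) in stimulated cells at an adjusted p under 0.05 by the quasi-likelihood test of edgeR, 1826 lower (12.1%) and 1567 higher (10.4%). Such a gene is called below, and changes are log2 fold changes of CsA over vehicle with their standard error (SE) unless another quantity is named. Of the called genes 1985 differed at least 2-fold (13.2% of those tested), 1131 lower and 854 higher. Falls reached further than rises, with 118 genes at least 8-fold lower and 68 at least 8-fold higher, and for 91 genes CsA left less than 10% of the vehicle level. The median change was −1.17 among the lower genes, 1.04 among the higher and 0.05 over all genes. With all 12 libraries 1833 of 14398 genes were called lower (12.7%) and 1485 higher (10.3%), and 2709 genes were called the same way in both fits and 0 in opposite ways. The fits share every library but CsA_PI 2. A library without the stimulation response can move genes the same way as CsA does. This overlap is therefore no independent check. The scaling set part of the split. Without a scaling factor, that is on library totals, 1396 genes were lower and 2267 higher, and the median of all genes moved to 0.22. A single CsA library also weighed on the count, which was 2026 without CsA_PI 1 and 2054 without CsA_PI 3, where the remaining one is assumed to vary like the other groups. Without the 4 libraries numbered 2 the count was 3452, and 2994 of the genes called in the main comparison were called the same way.

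**Figure D1:**
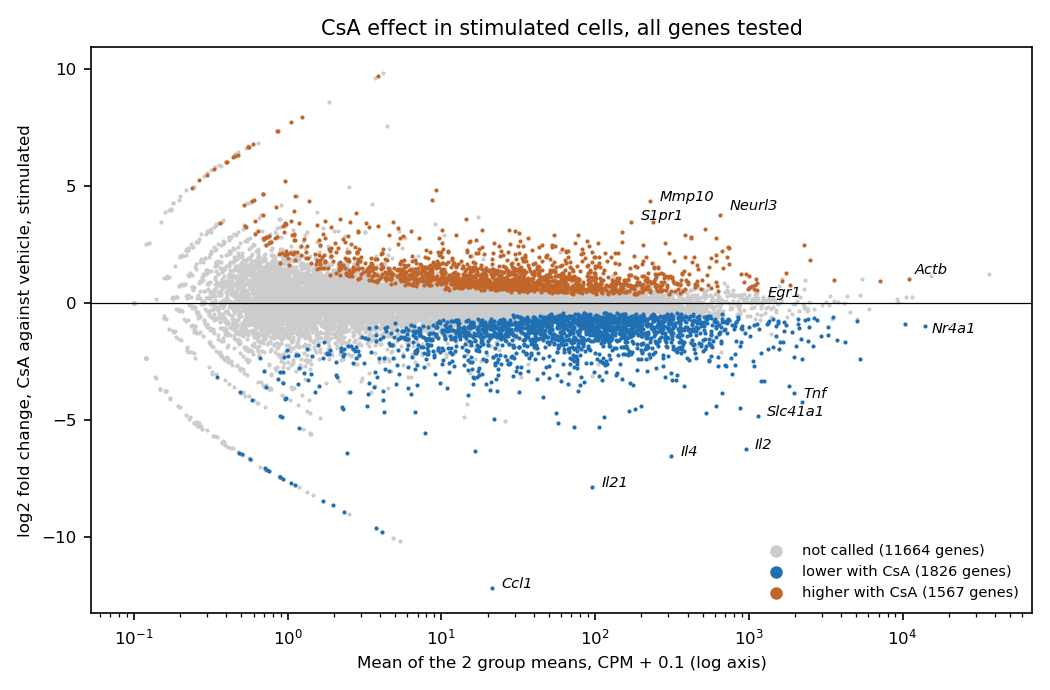
Change with CsA (log2 fold change, vertical axis) against the mean of the group levels (CPM + 0.1, log axis) for the 15057 genes tested in stimulated cells. Blue points are the 1826 genes called lower, orange the 1567 called higher and grey those not called. The arcs at the far left are genes with no count in one of the groups, whose fitted fold is no measured size, and the cytokines Il21, Il4, Il2 and Tnf lie far below 0 at high level.

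Detection followed the level of a gene. The share called was 3.61% under 1 CPM, 11.2% from 1 to 10 CPM, 31.4% from 10 to 100 CPM and 46% at 100 CPM and over. In the highest class 808 of 2325 genes were lower and 262 higher, whereas under 1 CPM 21 were lower and 69 higher. The counts over gene lists below are set beside all genes tested, not beside genes of like level. Where no share is printed, the mark is 12.1% lower and 10.4% higher. For lists of highly expressed genes the share over all genes is therefore a low mark. Protein-coding genes were called in 25.6% of cases and long noncoding genes in 10.5%. Of the 11664 genes that were not called, 7327 had a 95% interval reaching beyond a 2-fold change, so a change of that size is not excluded for them. For 702 genes the whole interval lay within 0.5 of 0 on the log2 scale.

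Helper cytokine genes showed some of the deepest falls. Il2, the T cell growth factor, was at 2076, 1815 and 1757 CPM in the 3 vehicle libraries and at 25.3 and 23.3 CPM in CsA_PI 1 and 3. The groups were far apart, 1.29% of the vehicle mean was left, and the change was −6.23 ± 0.30 (SE; edgeR adjusted p = 1.09e-07), or −6.79 with all 12 libraries. Il2 (ENSMUSG00000027720) lies on chromosome 3 from 37120523 to 37125959 of mm10. Il21, a cytokine of follicular helper cells, was at 132, 244 and 196 CPM with vehicle and at 0.475 and 1.17 CPM with CsA (−7.85 ± 0.58, and −7.08 with all 12 libraries). The CsA mean lay below all 3 resting vehicle libraries (1.07 to 2.89 CPM), though CsA_PI 3 alone lay within their range. Il4, the signature cytokine of type 2 helper cells, fell from 1018, 386 and 449 CPM to 8.79 and 3.92 CPM (−6.54 ± 0.62; adjusted p = 6.85e-05), about its resting mean of 7.55 CPM. Ifng, the signature cytokine of type 1 cells, fell from 2050.0, 1571 and 1385 CPM to 84.7 and 58.9 CPM, a change of −4.49 ± 0.35 that left a level above the resting mean of 13.6 CPM.

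Upstream bases of 4 of these genes are shown because NFAT binds the core GGAAA and lies behind their known regulation in textbooks, and because they carry the largest or best-known falls. The windows are the 250 bases before the gene's start in RefSeq, on the build GRCm38.p6, written 5′ to 3′ on the gene's strand, with GGAAA and its reverse complement TTTCC in capitals. They lie at chr3:37125955-37126204 (Il2), chr11:53618666-53618915 (Il4), chr17:35202008-35202257 (Tnf) and chr3:37232637-37232886 (Il21), each on the minus strand.
Il2: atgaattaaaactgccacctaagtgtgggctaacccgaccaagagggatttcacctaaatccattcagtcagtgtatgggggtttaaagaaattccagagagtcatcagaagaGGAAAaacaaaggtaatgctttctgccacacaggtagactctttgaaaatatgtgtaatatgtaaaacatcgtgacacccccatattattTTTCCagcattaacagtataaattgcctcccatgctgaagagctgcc
Il4: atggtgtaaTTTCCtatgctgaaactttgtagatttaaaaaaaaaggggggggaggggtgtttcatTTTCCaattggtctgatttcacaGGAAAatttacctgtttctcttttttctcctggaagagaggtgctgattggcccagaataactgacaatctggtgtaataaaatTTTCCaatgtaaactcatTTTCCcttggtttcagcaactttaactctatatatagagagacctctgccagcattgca
Tnf: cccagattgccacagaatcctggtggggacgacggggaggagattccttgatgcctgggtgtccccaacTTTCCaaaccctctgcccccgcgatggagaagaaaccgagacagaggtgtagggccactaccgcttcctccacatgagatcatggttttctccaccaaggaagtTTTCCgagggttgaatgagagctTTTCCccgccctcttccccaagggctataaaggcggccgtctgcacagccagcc
Il21: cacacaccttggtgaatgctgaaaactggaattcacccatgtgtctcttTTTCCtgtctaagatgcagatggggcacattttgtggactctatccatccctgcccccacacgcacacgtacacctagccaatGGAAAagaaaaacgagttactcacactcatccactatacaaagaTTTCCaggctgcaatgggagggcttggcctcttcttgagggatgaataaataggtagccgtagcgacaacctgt
The core occurs 2 times in the Il2 window, 5 times in that of Il4, and 3 times each in those of Tnf and Il21. The AP-1 motif TGANTCA, searched on both strands like GGAAA, is in none of the 4 windows shown. A second RefSeq start of Il4 has a window with 0 cores. Over all tested genes with an entry, 13138 windows of 10331 genes, 54.3% held GGAAA, 6.3% held it at least 3 times and 4.55% held TGANTCA. Among the windows of genes called lower these shares were 55.8%, 7.31% and 5.17%, and among those of genes called higher 54.3%, 6.0% and 4.66%. The 112 windows of genes at least 8-fold lower held GGAAA in 64.3% of cases, at least 3 times in 17%, and TGANTCA in 13.4%. The 170 windows of genes at least 4-fold higher held GGAAA in 53.5%, at least 3 times in 4.12%, and TGANTCA in 7.65%. The fold limit was 8-fold for lower and 4-fold for higher genes, so these sets are not matched for size of change. A match is a run of letters, not a bound site, and these shares carry no test.

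Of 20 measured interleukins and colony-stimulating factors 14 were lower and 1 was higher, with a median of −3.68, against 12.1% lower, 10.4% higher and a median of 0.05 over all genes. The counts were the same with all 12 libraries. The inflammatory cytokines of type 17 cells fell together. Il17a went from 179, 71.8 and 82.6 CPM to 4.67 and 1.47 CPM (−5.10 ± 0.61, and −5.75 with all 12 libraries). Il17f went from 167, 69.5 and 83.3 CPM to 3.33 and 4.70 CPM (−4.70 ± 0.45). Type 2 cytokine Il13 fell from 200.01, 92.6 and 137 CPM to 12 and 8.52 CPM (−3.76 ± 0.47; adjusted p = 0.000176), and its change was −4.39 with all 12 libraries. The myeloid growth factor Csf2 fell from 117, 73.8 and 66.7 CPM to 6.42 and 4.01 CPM (−3.99 ± 0.56, and −4.59 with all 12 libraries). Il3, another growth factor of blood cells, was at 11, 5.62 and 7.63 CPM with vehicle and had no count in CsA_PI 1 or 3. Its vehicle mean was 69.5 times a floor of 3 counts over both libraries, taken on library totals. With TMM factors that floor is higher and the ratio smaller, so the ratio is not a lower bound. Il9 and Il31 had no count there either, with vehicle means 13.7 and 16.3 times the same floor. Il16, a ligand of CD4 that is stored in resting T cells, was the single member that rose, from 33.9, 37.4 and 48.9 CPM to 367 and 505 CPM (3.48 ± 0.21). It stood at a mean of 424 CPM in resting vehicle cells. Tgfb1, an immunoregulatory cytokine, was not called, at 129.5, 107 and 143 CPM and 104 and 79.9 CPM (95% interval of the change −1.06 to 0.22, and a change of −0.91 with all 12 libraries).

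**Figure D2:**
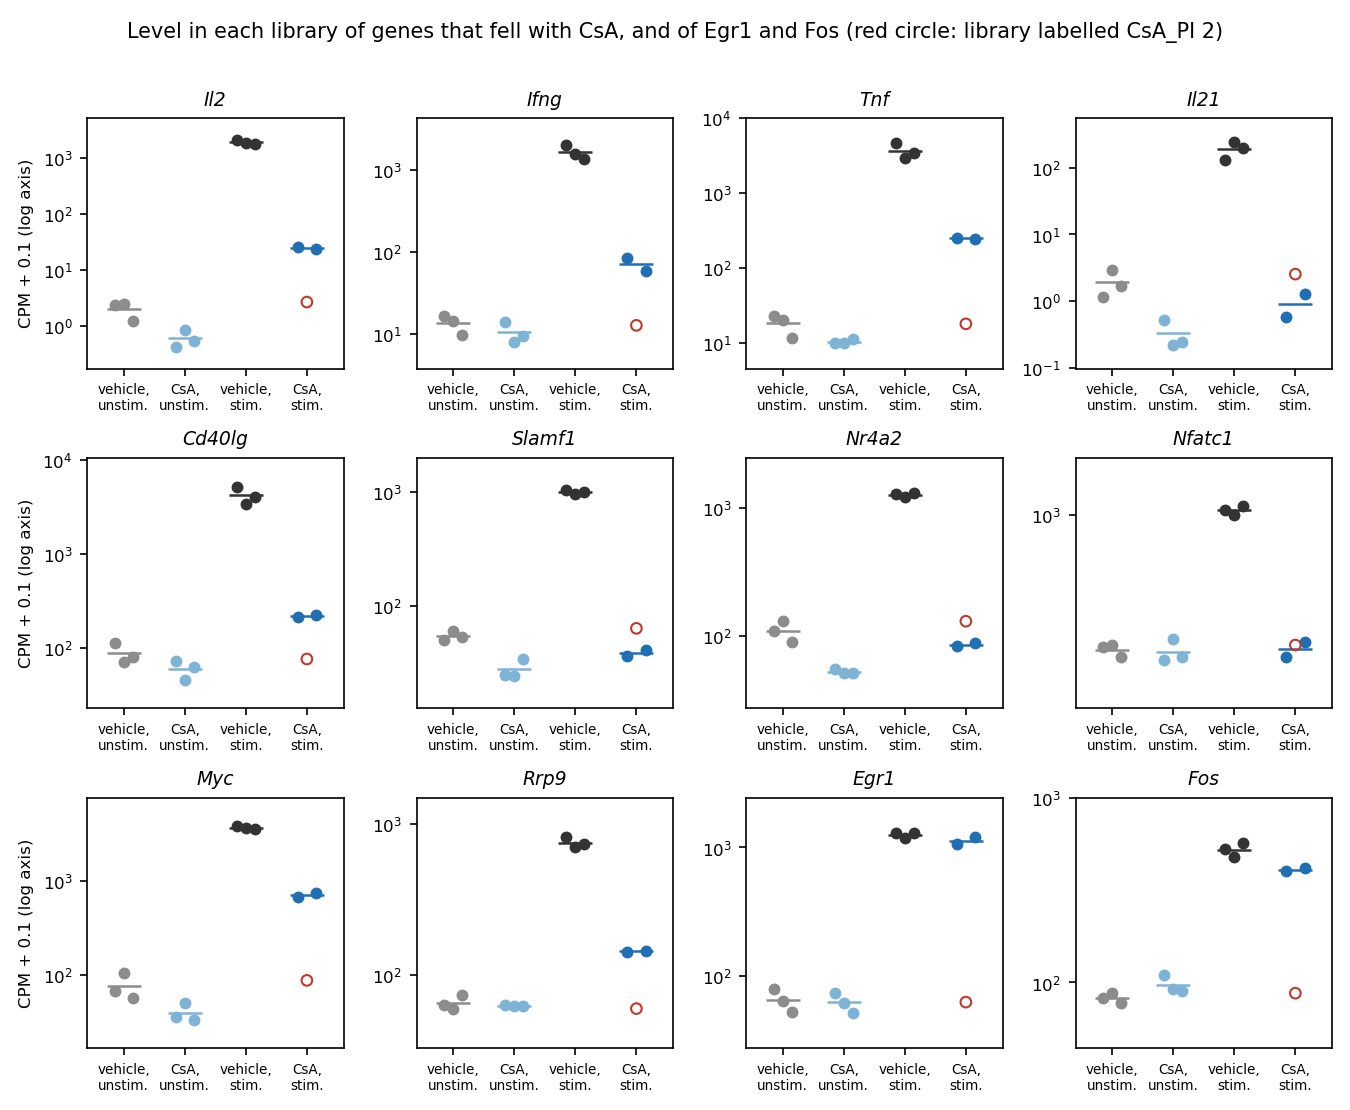
Level of 12 genes in each library (CPM + 0.1, log axis) in the 4 groups; lines are group means without the library labelled CsA_PI 2, which is the red circle. For Il2, Ifng, Tnf, Il21, Cd40lg, Slamf1, Nr4a2, Nfatc1, Myc and Rrp9 the CsA-stimulated libraries 1 and 3 lie under all 3 vehicle-stimulated ones, while Egr1 and Fos lie close to them and high above rest.

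Chemokine and TNF ligand genes were mostly lower where called. Of 14 chemokines 6 were lower and 1 higher (median −2.15), or 6 and 0 with all 12 libraries, 0 higher without CsA_PI 1, CsA_PI 3 or any ethanol_PI library. Ccl1, a ligand of Ccr8, was at 56.1, 25.2 and 46.0 CPM with vehicle and had a count of 0 in each CsA_PI library. Its vehicle mean was 366 times the floor used for Il3 over CsA_PI 1 and 3, again not a lower bound. Ccl3 and Ccl4, which attract T cells and monocytes, fell from 1337, 1139.9 and 1005 CPM to 59.9 and 48.3 CPM (−4.38 ± 0.62) and from 3943, 3129 and 3066 CPM to 325 and 237 CPM (−3.55 ± 0.43, and −4.15 with all 12 libraries). Both remained above their resting vehicle means of 3.40 and 7.76 CPM. Of 11 TNF superfamily ligands 8 were lower and 1 higher (median −2.31), or 7 and 1 with all 12 libraries, 2 higher without ethanol_US 2 or ethanol_US 3, 2 higher with the replicate block, 2 higher on library totals. Tnf fell from 4646, 2954 and 3468 CPM to 256 and 245 CPM (−3.84 ± 0.30; edgeR adjusted p = 3.35e-06), still above the 18.2 CPM of rest. Cd40lg, the signal by which helper cells license B cells, fell from 5193, 3407 and 4052 CPM to 214 and 224 CPM (−4.23 ± 0.30). Tnfsf14, a costimulatory ligand, fell from 380.1, 263 and 321 CPM to 15.6 and 9.59 CPM (−4.62 ± 0.28). The death ligand Fasl fell from 464, 284 and 385 CPM to 78.4 and 69.9 CPM (−2.31 ± 0.43). Tnfsf4, which encodes OX40 ligand, went the other way, from 2.02, 2.13 and 2.09 CPM to 18.4 and 17.7 CPM (3.15 ± 0.50; adjusted p = 0.000566), and was at 3.36 CPM at rest.

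Inhibitory and costimulatory receptors were lower for 13 of 27 measured members and higher for 2 (median −1.56), or 12 and 1 with all 12 libraries, 1 higher without CsA_PI 1, CsA_PI 3, ethanol_PI 1, ethanol_PI 3 or CsA_US 3, 4 higher with the replicate block. Slamf1, a self-ligand receptor of activated T cells, was at 1045, 961 and 1018 CPM with vehicle and 35.8 and 40.8 CPM with CsA (−4.68 ± 0.22; adjusted p = 1.09e-07). CsA held it under the lowest resting vehicle library, whose range was 49.8 to 60.1 CPM. Cd160 and Btla, which share the ligand HVEM, fell by 4.85 ± 0.38 and 3.49 ± 0.28 on the log2 scale. Ctla4, which competes with Cd28 for its ligands, fell by 1.86 ± 0.17. Vsir, the checkpoint receptor VISTA, was at 2572, 2090.2 and 2228 CPM with vehicle and at 225 and 222 CPM with CsA (−3.32 ± 0.20), against a resting mean of 267 CPM. Cd69, the early activation marker that holds cells in tissue, kept a larger part of its level, falling from 5711, 5501 and 5691 CPM to 1695 and 2035 CPM (−1.56 ± 0.17) with 319 CPM at rest. Cd28, the main costimulatory receptor, was one of the rising members, from 255, 217 and 251 CPM to 894 and 892 CPM (1.93 ± 0.16), a level above the resting mean of 330.2 CPM.

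Cytokine receptors split into 5 lower and 7 higher of 24, or 3 and 6 with all 12 libraries, 4 higher without CsA_PI 3. Ifngr1, a chain of the interferon gamma receptor, rose from 302, 197 and 244 CPM to 1195 and 1261 CPM (2.35 ± 0.25), closer to the 1789 CPM of resting cells. Il2ra, the receptor chain that gives Il2 binding its high affinity, was not called, at 857, 718 and 895 CPM with vehicle and 661 and 708 CPM with CsA, and the 95% interval of its change ran from −0.72 to 0.26. With all 12 libraries its change was −0.81, again without a call. Growth factor and receptor thus differed in their values, Il2 at 1.29% of the vehicle mean and Il2ra at 83.1%. Receptors for chemokines, sphingosine and oxysterols counted 4 lower and 5 higher of 19. Gpr183, an oxysterol receptor that guides cells within lymphoid tissue, fell from 1255, 1245 and 1124 CPM to 180.4 and 194 CPM (−2.65 ± 0.16). S1pr1, which draws lymphocytes into blood and lymph, rose from 27.5, 29.6 and 30.5 CPM to 317 and 313 CPM (3.47 ± 0.16; adjusted p = 1.09e-07), between the vehicle-stimulated level and the resting 485 to 638 CPM. Cxcr4, the receptor for Cxcl12, rose from 3.45, 11.6 and 6.28 CPM to 53.9 and 58.9 CPM (3.01 ± 0.53), above its resting mean of 29.1 CPM. Ccr7, the lymph node homing receptor, rose from 543, 1052 and 516 CPM to 3917 and 3885 CPM (2.51 ± 0.27), also above all resting libraries. Among its vehicle libraries the one numbered 2 was the highest, and without the 4 libraries numbered 2 the change was 2.92. TNF receptors counted 1 lower and 3 higher of 15, or 1 and 2 with all 12 libraries, 0 lower without CsA_PI 1, CsA_PI 3 or ethanol_PI 3, 5 higher without ethanol_US 3, 2 lower with the replicate block, 6 higher on library totals. Their share called was 26.7%, near the 22.5% of all genes. The higher ones included Tnfrsf26 (234, 213 and 275 CPM against 811 and 1378 CPM; 2.22 ± 0.36). The lower one, Tnfrsf4 or OX40 (−1.46 ± 0.40), was not called without CsA_PI 1 (−1.28), CsA_PI 3 (−1.70) or ethanol_PI 3 (−1.31), nor without the 4 libraries numbered 2 (−1.47) or with no filter on low counts (−1.45).

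The genes of the drug's own pathway moved in both directions. NFAT factors and their kinases counted 3 lower and 2 higher of 13 (median 0.24, or −0.17 with all 12 libraries), with 1 lower without CsA_PI 1, CsA_PI 3, ethanol_PI 3 or CsA_US 3, 1 lower on library totals. Nfatc1, whose short form is induced by NFAT itself, fell from 1061, 1002 and 1109.5 CPM to 193 and 230.0 CPM (−2.29 ± 0.16; adjusted p = 1.98e-06). The resting vehicle libraries had 193 to 221 CPM, and the library labelled CsA_PI 2 had 222 CPM. Nfatc2 and Nfatc3, the other NFAT proteins of T cells, rose from 7.86, 14.8 and 13.0 CPM to 33.8 and 37.1 CPM (1.61 ± 0.25) and from 34.2, 44.8 and 32.1 CPM to 131 and 121 CPM (1.80 ± 0.21). Their resting means were 27.5 and 110.4 CPM. Among 12 calcineurin subunits and regulators 3 were lower and 2 higher, also with all 12 libraries. Rcan1, an inhibitor of calcineurin and a known NFAT target, went from 14.0, 22.5 and 16.4 CPM to 1.11 and 2.15 CPM (−3.41 ± 0.37), under the resting 5.07 to 6.83 CPM. Its relative Rcan3 rose from 9.88, 11.9 and 12.8 CPM to 45.4 and 52.3 CPM (2.12 ± 0.16). The library labelled CsA_PI 2 held 6.82 CPM of Rcan1, and with all 12 libraries the change was −2.38. Cyclophilins, the receptors of CsA, counted 2 lower and 3 higher of 15, or 2 and 2 with all 12 libraries, 1 higher without CsA_PI 1 or ethanol_PI 2, 6 higher on library totals. The share of cyclophilins called was 33.3%, beside 22.5% of all genes. The mitochondrial Ppif fell from 240.5, 200.4 and 209 CPM to 66.9 and 73.1 CPM (−1.59 ± 0.14). Ppid, which pairs with Hsp90, fell from 234, 213 and 213 CPM to 83.1 and 92.4 CPM (−1.29 ± 0.16). Among 21 genes of calcium entry 5 were lower, including the channel subunit Orai1 (413, 259 and 386 CPM against 142 and 135 CPM; −1.31 ± 0.22) and the potassium channel Kcna3 (−1.68 ± 0.27). In the same list 2 were higher (5 and 3 with all 12 libraries, 1 higher without CsA_PI 1, CsA_PI 3 or ethanol_PI 2, 4 higher on library totals).

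Early transcription factors divided between members that CsA lowered and members near the vehicle level. Of 18 EGR, NR4A and other immediate-early genes 10 were lower and 2 higher (median −0.84), or 9 and 0 with all 12 libraries, 5 lower without CsA_PI 1, 6 lower without CsA_PI 3, 0 higher without CsA_PI 1 or CsA_PI 3, 1 higher without ethanol_PI 2. Egr1, which is driven through MAP kinase, was at 1298, 1185 and 1299.8 CPM with vehicle and at 1062 and 1201 CPM with CsA, and was not called. Its change was −0.12 ± 0.19 with a 95% interval of −0.53 to 0.29 (adjusted p = 0.725), and it was −0.70 with all 12 libraries, also without a call. Its relative Egr2 fell from 1449.5, 1290.2 and 1397 CPM to 122 and 210.4 CPM (−3.02 ± 0.37; adjusted p = 0.000146). The orphan nuclear receptors Nr4a2 and Nr4a1 both fell, by different amounts. Nr4a2 fell from 1276, 1202 and 1296 CPM to 83.9 and 88.4 CPM (−3.83 ± 0.20), under its resting mean of 110.0 CPM. Nr4a1, also a marker of receptor signalling strength, kept 50.1% of its vehicle level, 8971 and 9683 CPM against 21244, 15730.4 and 18910.3 CPM (−0.96 ± 0.23). The call of Nr4a1 was lost with all 12 libraries (−1.53, adjusted p = 0.133) and without CsA_PI 1 (adjusted p = 0.0805) or CsA_PI 3 (adjusted p = 0.0566). Plk3, a stress kinase, fell from 2423, 1796 and 2299 CPM to 194 and 228 CPM (−3.33 ± 0.24). Myc, the growth regulator, fell from 3875, 3703 and 3676 CPM to 672 and 748 CPM (−2.36 ± 0.26). It stayed above the resting 75.0 CPM.

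AP-1 genes counted 4 lower and 0 higher of 14 (median −0.62), with 1 lower without CsA_PI 1, 2 lower without CsA_PI 3. The share of AP-1 genes called was 28.6%, beside 22.5% of all genes. Fos was at 528, 476 and 566 CPM with vehicle and 399.6 and 414 CPM with CsA (−0.32 ± 0.15; adjusted p = 0.147), or a change of −0.80 with all 12 libraries. Junb was at 2706, 2259 and 2487 CPM with vehicle and 2064 and 2169 CPM with CsA (−0.19 ± 0.17, and −0.57 with all 12 libraries). Jun was at 200.5, 249 and 191 CPM with vehicle and 122 and 169.5 CPM with CsA (−0.52 ± 0.22) and missed the threshold. It was called with all 12 libraries (−0.74; adjusted p = 0.0377) and with only the 5 stimulated ones (−0.53). Fos and Junb were not called, and the CsA libraries of both lay under all vehicle libraries and above rest (82.4 and 871 CPM). Mafk, a small Maf partner, was the called member with the largest fall, from 425, 501 and 369 CPM to 131 and 151 CPM (−1.58 ± 0.25). NF-kB subunits and inhibitors counted 8 lower and 3 higher of 18, also with all 12 libraries, and 5 higher without CsA_US 2, 5 higher on library totals. Nfkbid, a nuclear inhibitor-like protein, fell from 10398, 7932 and 8485 CPM to 1675 and 1700.3 CPM (−2.37 ± 0.27). The classical inhibitor Nfkbia fell from 3497, 3013 and 3369 CPM to 1125 and 1065 CPM (−1.55 ± 0.17). Bcl3, a coactivator of the p50 and p52 subunits, rose from 42.0, 43.7 and 50.8 CPM to 103 and 126 CPM (1.37 ± 0.18). Tnfaip3, the deubiquitinase A20, was not called (2279, 2572 and 2333 CPM and 1681 and 2072 CPM; 95% interval −0.79 to 0.16, and a change of −0.62 with all 12 libraries).

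Lineage factors of helper cells counted 9 lower and 3 higher of 24, or 9 and 2 with all 12 libraries, 4 lower without CsA_PI 1, 5 higher without ethanol_US 2, 5 higher with the replicate block, 5 higher on library totals. Tbx21, the type 1 factor T-bet, fell from 577, 611 and 482 CPM to 66.7 and 68.8 CPM (−3.0 ± 0.25; adjusted p = 3.86e-06). Ikzf3, an Ikaros family repressor, fell by 1.72 ± 0.19 on the log2 scale. Bcl6, the follicular helper factor and a repressor of T-bet's programme, rose from 49.3, 55.4 and 52.4 CPM to 193 and 208 CPM (1.97 ± 0.19), above the resting mean of 153 CPM. Irf4, a factor of effector differentiation, was at 2121, 2847 and 2347 CPM with vehicle and 697 and 830.0 CPM with CsA. Its fall (−1.64 ± 0.50; adjusted p = 0.0406) was not called without CsA_PI 1, CsA_PI 3, any ethanol_PI library or ethanol_US 1, where the change was −1.77 to −1.55 and the adjusted p 0.0541 to 0.227. The call was also lost on library totals (adjusted p = 0.0564) and with no filter on low counts (adjusted p = 0.136). Interferon regulatory factors and STATs counted 1 lower, which was Irf4, and 4 higher of 15, or 2 and 4 with all 12 libraries, 0 lower without CsA_PI 1, any ethanol_PI library or ethanol_US 1, 2 lower without CsA_US 1, CsA_US 2 or ethanol_US 2, 2 higher without CsA_PI 3, 0 lower on library totals.

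Feedback inhibitors of MAP kinase signalling moved in both directions, 5 lower and 3 higher of 18, or 6 and 2 with all 12 libraries, 2 lower without CsA_PI 1, 3 lower without CsA_PI 3, 5 higher on library totals. Spry1, an inhibitor of the Ras pathway, fell from 216, 209.6 and 198 CPM to 5.70 and 4.50 CPM (−5.30 ± 0.35; adjusted p = 8.76e-07), and the phosphatase Dusp14 by 2.28 ± 0.43 on the log2 scale. Dusp10, which acts on the stress kinases p38 and JNK, rose from 37.3, 36.0 and 53.3 CPM to 247 and 263 CPM (2.64 ± 0.19), about its resting mean of 227 CPM. Dusp5, a nuclear phosphatase of ERK, was already above rest with vehicle, at 1317, 869.6 and 1145 against 277 CPM, and higher still with CsA, at 3989 and 3840.1 CPM (1.86 ± 0.19). The library labelled CsA_PI 2 held 248 CPM of it, and with all 12 libraries the call was lost (1.28). Suppressors of cytokine signalling and PIM kinases counted 5 lower and 0 higher of 11 (3 lower without CsA_PI 3). They included Cish, which is induced by Stat5 (791, 726 and 701 CPM against 329 and 273 CPM; −1.25 ± 0.23), and the survival kinase Pim3 (−1.68 ± 0.19). Genes that shorten the life of messenger RNA counted 2 lower and 5 higher of 19, or 1 and 3 with all 12 libraries, 0 lower without CsA_PI 3, 1 lower without CsA_PI 1, 2 higher without CsA_PI 3, 3 higher without CsA_PI 1 or ethanol_PI 1. Zfp36l2, which binds AU-rich elements and promotes decay, rose from 151, 152 and 174 CPM to 612 and 598 CPM (1.97 ± 0.19), several times the resting mean of 134 CPM.

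Proximal signalling genes of the T cell receptor counted 9 lower and 7 higher of 29, or 11 and 5 with all 12 libraries, 5 lower without CsA_PI 1, 4 higher without CsA_PI 1 or CsA_PI 3. Lcp2, the adaptor SLP-76, fell from 1616, 982 and 1266 CPM to 238 and 254 CPM (−2.35 ± 0.26), while Grap2, the adaptor Gads that joins SLP-76 to LAT, rose from 28.8, 17.1 and 25.3 CPM to 106 and 113 CPM (2.25 ± 0.21; adjusted p = 8.63e-06). Ptpn22, a phosphatase that restrains Lck, fell from 2520.1, 2084 and 2228 CPM to 543 and 656 CPM (−1.89 ± 0.20), and Malt1, the paracaspase upstream of NF-kB, by 1.67 ± 0.23 on the log2 scale. Genes known from anergy, a state of unresponsiveness that calcium and NFAT alone can set up, counted 8 lower and 2 higher of 16, or 7 and 2 with all 12 libraries, 3 lower without CsA_PI 1, 5 lower without CsA_PI 3. Besides Egr2, this list held Sh2d2a, an adaptor of Lck, which fell from 1998, 1611 and 2017 CPM to 279 and 282 CPM (−2.70 ± 0.21, and −1.89 with all 12 libraries), under its resting 909 to 1354 CPM. The ubiquitin ligase Rnf128, or GRAIL, also fell (−1.86 ± 0.29). Cblb, another ubiquitin ligase of anergy, was not called (95% interval −0.66 to 0.05, and a change of −0.48 with all 12 libraries).

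Many growth and biosynthesis genes were lower. Of 54 ribosome biogenesis genes 52 were lower and 0 higher (median −1.60), and 53 were lower with all 12 libraries. The RNA polymerase I subunit Polr1b fell from 454, 473 and 379 CPM to 56.4 and 69.2 CPM (−2.76 ± 0.29). The processing factor Rrp12 fell from 259, 252 and 235 CPM to 41.1 and 39.3 CPM (−2.59 ± 0.24). Rrp9, a part of the U3 particle, fell from 824, 712 and 738 CPM to 143 and 145 CPM (−2.36 ± 0.15; edgeR adjusted p = 8.14e-07). Their resting means were 32.4, 23.7 and 65.3 CPM, so the CsA libraries lay between rest and the vehicle response. The exceptions were Noc2l (−1.22 ± 0.52; adjusted p = 0.138) and Rrp1 (−0.10 ± 0.13, and −0.37 with all 12 libraries), which were not called, Noc2l being called lower with all 12 libraries (−1.63), with DESeq2 (−1.26), with only the 5 stimulated libraries (−1.23) and without CsA_US 1 (−1.22). Cytosolic ribosomal proteins, the parts of the finished ribosome, counted 1 lower and 0 higher of 38 (median 0.15), or 3 and 0 with all 12 libraries, 0 lower without CsA_PI 3, any ethanol_PI library, CsA_US 3 or ethanol_US 1, 2 lower without CsA_PI 1, CsA_US 1 or CsA_US 2, 1 higher without CsA_PI 3, CsA_US 2 or ethanol_US 3, 2 higher without ethanol_US 2, 2 lower with the replicate block, 0 lower on library totals, 2 higher with the replicate block, 1 higher on library totals.

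Several nucleotide and protein synthesis lists pointed the same way. Purine synthesis counted 12 lower and 0 higher of 14 (median −0.97), or 11 and 0 with all 12 libraries. Ppat, its first committed enzyme, fell from 374, 369.6 and 339 CPM to 55.1 and 81.6 CPM (−2.37 ± 0.20). Impdh1, on the branch to guanine nucleotides and a target of another immunosuppressant, mycophenolic acid, fell from 505, 441 and 421 CPM to 123 and 124 CPM (−1.85 ± 0.24). The resting means were 52.3 and 119 CPM. In pyrimidine synthesis 4 of 16 were lower and 1 higher (0 higher without CsA_PI 1, 2 higher without CsA_US 2, 7 lower with the replicate block, 2 higher on library totals), led by Ctps, which makes cytidine nucleotides (297, 279 and 273 CPM against 62.2 and 58.8 CPM; −2.18 ± 0.20). Translation initiation factors counted 20 lower and 1 higher of 41 (median −0.49), or 22 and 1 with all 12 libraries, 0 higher without CsA_PI 1, CsA_PI 3, any ethanol_PI library or ethanol_US 1, 2 higher on library totals. Aminoacyl-tRNA synthetases with their partners counted 12 lower and 1 higher of 23 (median −0.54), or 13 and 0 with all 12 libraries, 6 lower without CsA_PI 1, 0 higher without CsA_PI 1, CsA_PI 3, any ethanol_PI library, CsA_US 3 or ethanol_US 1. Eif5a, the factor that carries hypusine, fell from 4706, 3811 and 4344 CPM to 1623 and 1577 CPM (−1.38 ± 0.19). Aimp2, a scaffold of the synthetase complex, fell from 131, 126 and 131 CPM to 34.2 and 30.8 CPM (−1.95 ± 0.20). Chaperonin and heat shock genes counted 17 lower and 0 higher of 25 (median −0.77), or 20 lower with all 12 libraries. Hspa4l, a partner of Hsp70, fell from 349, 305 and 394 CPM to 14.4 and 14.9 CPM (−4.54 ± 0.24, and −3.94 with all 12 libraries), under its resting 34.9 to 37.2 CPM, and Hspd1, the mitochondrial chaperonin, from 916, 802 and 850.3 CPM to 245 and 262 CPM (−1.72 ± 0.19).

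Amino acid transport and one-carbon genes counted 10 lower and 2 higher of 24 (median −1.12). Shmt1, which hands a carbon from serine to folate, fell from 340.3, 276 and 306 CPM to 25.5 and 30.2 CPM (−3.43 ± 0.19; adjusted p = 2.72e-07). The glutamine carrier Slc1a5 fell from 1334, 1236 and 1421 CPM to 254 and 316 CPM (−2.19 ± 0.19). Ddit4, an inhibitor of mTOR, rose from 3.33, 2.71 and 4.43 CPM to 17.3 and 16.3 CPM (2.31 ± 0.29). Glycolysis and the pentose phosphate path counted 11 lower and 1 higher of 29 (median −0.46), or 10 and 1 with all 12 libraries, 7 lower without CsA_PI 1, 0 higher without CsA_PI 1, CsA_PI 3 or ethanol_PI 2. Hexokinases Hk1 and Hk2, which trap glucose, fell from 490.0, 452 and 499.7 CPM to 67.6 and 78.4 CPM (−2.68 ± 0.22) and from 50.4, 67.7 and 53.3 CPM to 6.26 and 10.7 CPM (−2.73 ± 0.37), and the lactate carrier Slc16a1 by 2.34 ± 0.23 on the log2 scale. Aldoa, further down the path, was not called (95% interval −0.59 to 0.06, and a change of −0.53 with all 12 libraries). Polyamine genes counted 6 lower and 1 higher of 14, or 7 and 0 with all 12 libraries, 2 higher without ethanol_US 3, 2 higher on library totals. Srm, which makes spermidine, fell from 759, 660.0 and 667 CPM to 130.2 and 122 CPM (−2.42 ± 0.15), while Smox, which oxidises spermine, rose from 181, 173 and 197 CPM to 649 and 745 CPM (1.96 ± 0.13). The library labelled CsA_PI 2 held 57.3 CPM of Smox, and with all 12 libraries it was not called (1.40). Cell cycle entry genes counted 8 lower and 2 higher of 32 (6 and 2 with all 12 libraries, 5 lower without CsA_PI 1). The share called in this list was 31.2%, beside 22.5% of all genes. The cyclin Ccnd2 fell from 4433, 3423 and 4357 CPM to 1115 and 1145 CPM (−1.81 ± 0.22). The inhibitor Cdkn1b rose from 7.62, 7.75 and 7.75 CPM to 23.4 and 20.9 CPM (1.56 ± 0.22, and 2.58 with all 12 libraries). Resting cells held 127 CPM of Cdkn1b, far above both stimulated groups. In the BCL2 family 7 of 19 were lower and 2 higher (7 and 3 with all 12 libraries, 1 higher without CsA_PI 1, 5 higher with the replicate block, 4 higher on library totals), among the lower ones the survival factor Bcl2l1 (277, 294 and 259.5 CPM against 99.6 and 112 CPM; −1.35 ± 0.18).

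**Figure D3:**
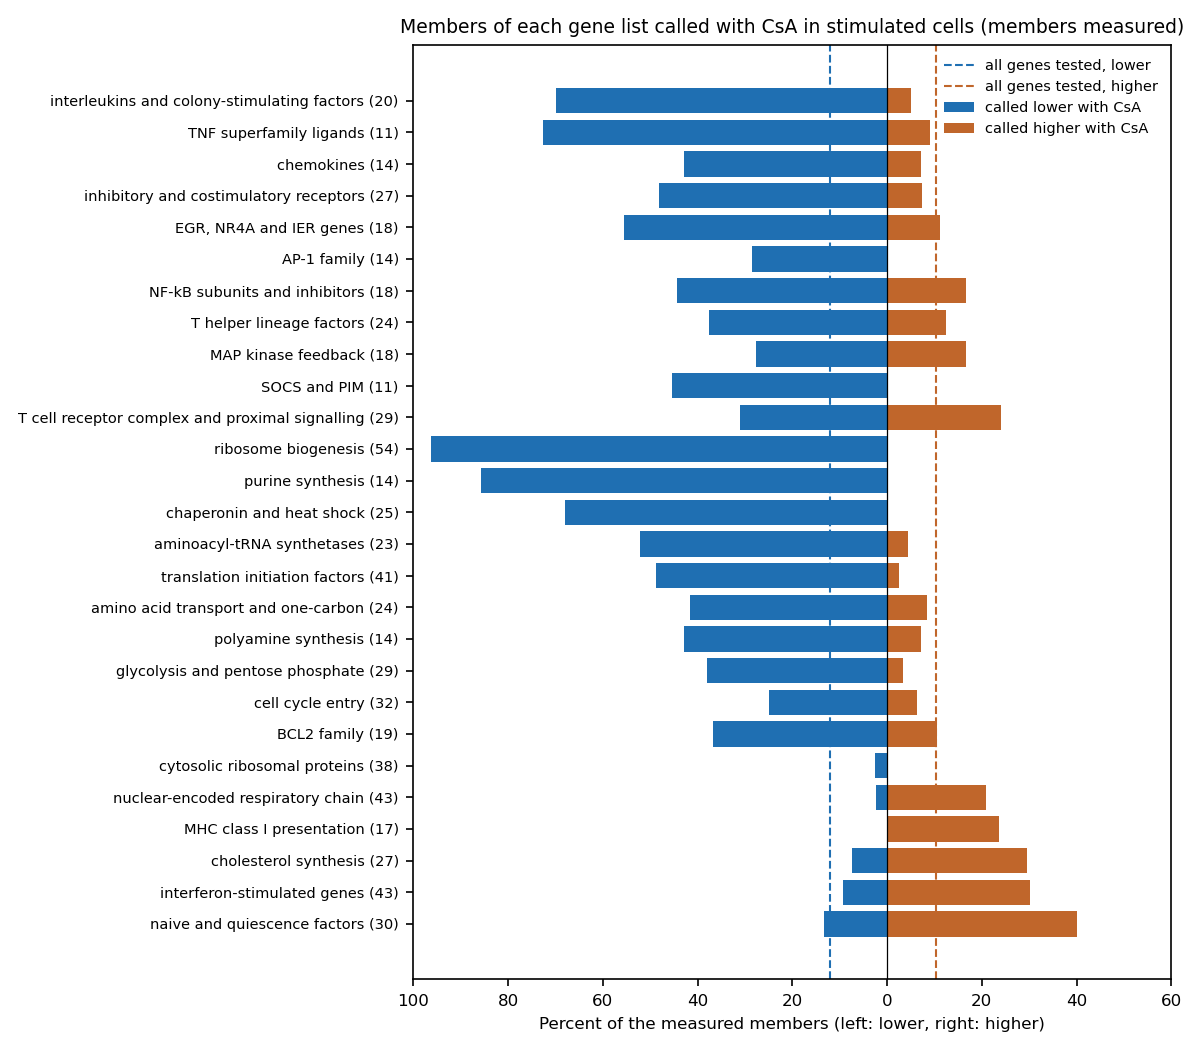
Share of each list's measured members (number in brackets) called lower with CsA (blue, to the left) and higher (orange, to the right), with dashed lines at the 12.1% and 10.4% of all genes tested. Ribosome biogenesis, purine synthesis, TNF superfamily ligands and interleukins have the longest bars to the left, and naive and quiescence factors the longest to the right. The dashed lines are not matched for level, and of the 2325 genes at 100 CPM and over 808 were called lower.

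The genes that rose were also set beside their resting level. The vehicle-stimulated libraries enter both the call and the comparison with rest, so their numbers lean under rest by selection. CsA_PI 1 and 3 enter the call too, so the numbers for the CsA mean lean above rest. The share over all genes tested was not counted. Of 1247 higher genes at 10 CPM or more, 924 had a vehicle-stimulated mean below every resting vehicle library and 158 one above. The CsA mean was below every resting library for 386, within their range for 247 and above it for 614. Naive and quiescence factors counted 12 higher and 4 lower of 30 (median 0.40), against 3 lower and 13 higher with all 12 libraries and 2 lower without CsA_PI 1 or CsA_PI 3 or on library totals. Tcf7, the factor TCF-1 of naive and memory cells, stood at 729.7 and 736 CPM with CsA against 110.0, 80.6 and 133 CPM with vehicle (2.80 ± 0.24; adjusted p = 4.7e-06), with 573 to 927 CPM at rest. Klf9, a Krüppel-like factor, went the other way, from 32.4, 27.8 and 34.9 CPM to 7.29 and 7.34 CPM (−2.08 ± 0.25). Klf2, which drives S1pr1, was low in both stimulated groups, at 16.1, 8.04 and 22.3 CPM with vehicle and 8.79 and 10.4 CPM with CsA, against 80.6 CPM at rest. It was not called (−0.65 ± 0.41, and 0.65 with all 12 libraries), but was called lower without the 4 libraries numbered 2 (−0.96, adjusted p = 0.0484).

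A set of genes ended above both the resting and the vehicle-stimulated cells. Neurl3, a ubiquitin ligase, was at 1251 and 1169 CPM with CsA, 93.9, 78.9 and 99.8 CPM with vehicle and 306 to 476 CPM at rest (3.77 ± 0.21 against vehicle). Gtf2i, the general factor TFII-I, was at 996 and 865 CPM, against 109, 96.6 and 113 CPM and 362 to 419 CPM (3.17 ± 0.17). Eif2ak3, the PERK kinase of the unfolded protein response, was at 232 and 297 CPM, against 32.0, 32.9 and 33.1 CPM and 67.4 to 99.1 CPM (3.05 ± 0.19). In each of these the library labelled CsA_PI 2 was lower than CsA_PI 1 and 3, at 497, 367 and 93.0 CPM, and each was called with it as well. Mmp10, a secreted metalloprotease, was at 293 and 576 CPM with CsA, 18.9, 18.5 and 26.2 CPM with vehicle and 2.87 to 7.19 CPM at rest (4.39 ± 0.40, and 3.78 with all 12 libraries). Fth1, the ferritin heavy chain, had 2763 and 2159 CPM against 1080.4, 1026 and 980.3 CPM (1.30 ± 0.17). Among the highest counts, Actb, the actin often used as a reference, rose from 7456, 7413 and 6978 CPM to 15712 and 13677 CPM (1.05 ± 0.22; adjusted p = 0.00341). It was not called with all 12 libraries (0.64).

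**Figure D4:**
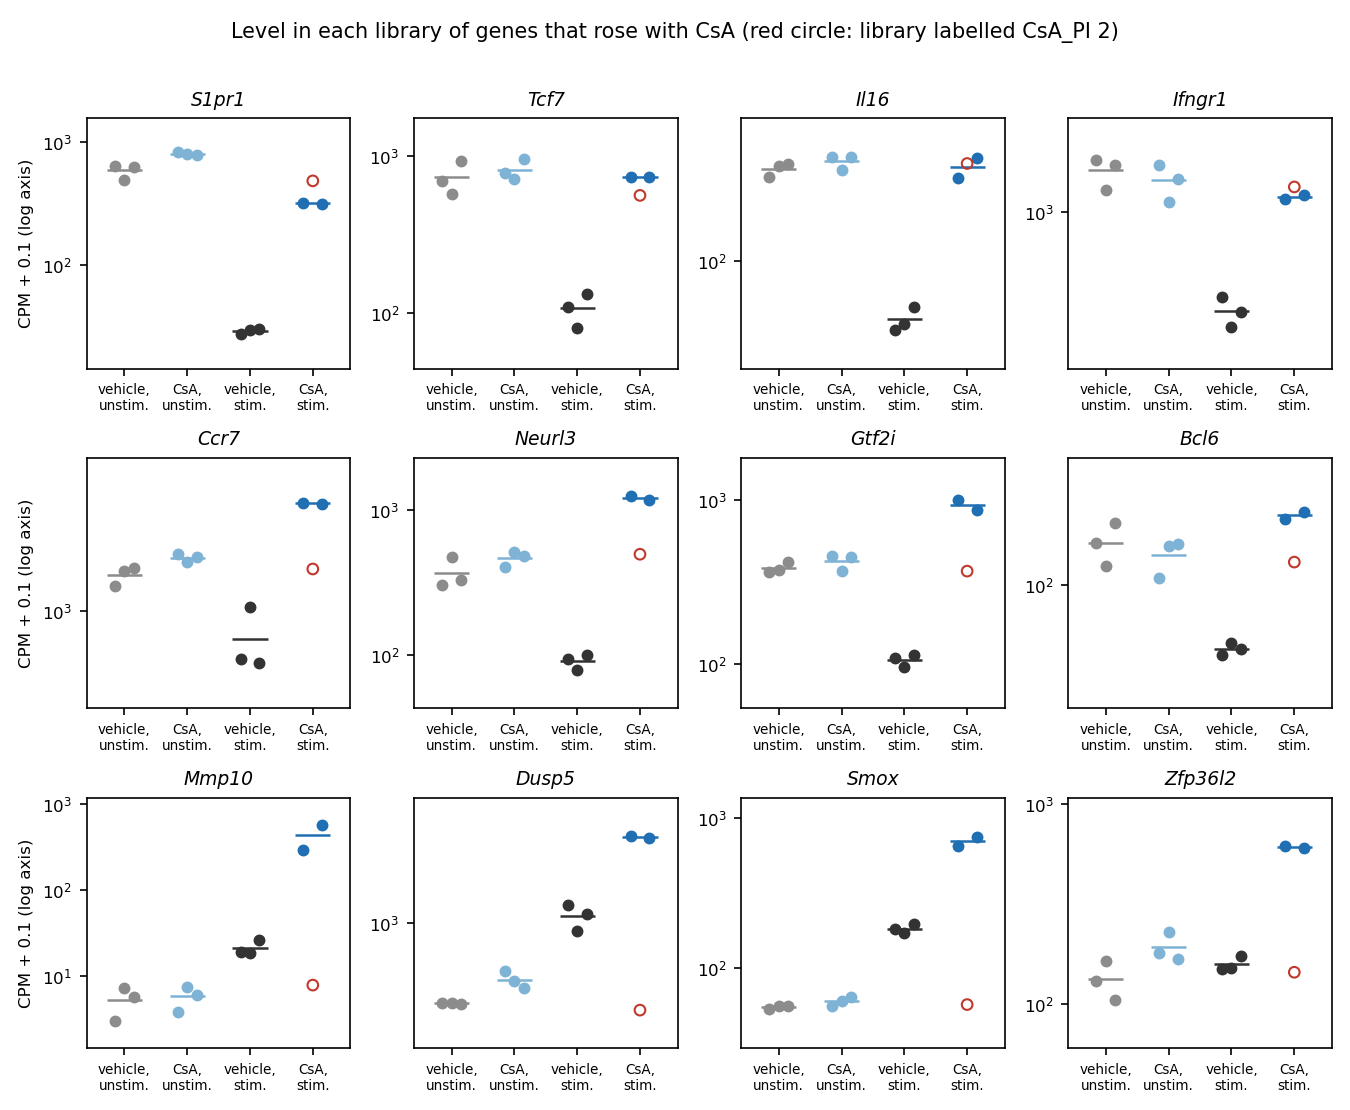
Level of 12 genes that rose with CsA, in each library (CPM + 0.1, log axis) and group; lines are group means without the library labelled CsA_PI 2 (red circle). S1pr1, Tcf7, Il16 and Ifngr1 lie near or under rest with CsA, Ccr7, Neurl3, Gtf2i and Bcl6 lie above rest while the vehicle response goes under it, and Mmp10, Dusp5, Smox and Zfp36l2 exceed both other groups.

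Of 43 interferon-stimulated genes 13 were higher and 4 lower (median 0.36). The counts were 3 lower and 13 higher with all 12 libraries, 2 lower without CsA_PI 1 or CsA_PI 3 or on library totals, and 7 higher without CsA_PI 3. Ifit3, an antiviral effector, rose from 3.45, 4.55 and 3.32 CPM to 23.5 and 41.5 CPM (3.13 ± 0.37), above the resting mean of 9.80 CPM. Its near-identical copy Ifit3b, from which its reads may not be separable, rose too (4.82 ± 0.60). Ifih1, the RNA sensor MDA5, fell from 79.2, 84.1 and 85.9 CPM to 12.8 and 11.3 CPM (−2.74 ± 0.21). The interferon-induced GTPases split, 4 lower and 3 higher of 16, or 4 and 1 with all 12 libraries, 1 higher without CsA_PI 3 or any ethanol_PI library. Gbp8 and Gbp9 fell by 1.89 ± 0.21 and 1.73 ± 0.25 on the log2 scale, and Irgm2 rose by 1.07 ± 0.17. The immunoproteasome subunits Psmb8, Psmb9 and Psmb10, which trim peptides for MHC class I, all rose (1.1 ± 0.17, 1.41 ± 0.14 and 1.18 ± 0.17), Psmb9 from 70.6, 63.2 and 56.8 CPM to 162 and 166 CPM. The proteasome list as a whole counted 5 lower and 4 higher of 41 (8 and 4 with all 12 libraries, 3 lower without CsA_PI 1 or CsA_PI 3, 3 lower on library totals), a share of 22% beside the 22.5% of all genes. Of 17 genes of class I presentation 4 were higher and 0 lower (median 0.27; 0 and 3 with all 12 libraries, 2 higher without CsA_PI 3 or any ethanol_PI library, 8 higher on library totals, 7 higher with only the 5 stimulated libraries), a share of 23.5%, also near that of all genes. They included the nonclassical H2-T22 (177, 144 and 163 CPM against 355 and 403 CPM; 1.27 ± 0.20), whose family shares sequence.

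Cholesterol synthesis genes counted 8 higher and 2 lower of 27 (median 0.49), but 2 higher and 1 lower with all 12 libraries, and 1 lower without CsA_PI 1, CsA_PI 3, any ethanol_PI library, CsA_US 1 or ethanol_US 1 or on library totals. Pmvk, a kinase of the mevalonate path, rose from 5.60, 5.52 and 4.18 CPM to 21.8 and 14.4 CPM (1.87 ± 0.33). Scap, a sterol sensor that escorts its target factors to the Golgi, fell from 103, 103 and 95.4 CPM to 38.3 and 49.0 CPM (−1.17 ± 0.18). Nuclear genes of the respiratory chain counted 9 higher and 1 lower of 43 (median 0.18), a share of 23.3% beside the 22.5% of all genes. The counts were 4 higher and 2 lower with all 12 libraries, 1 higher without CsA_PI 1, 5 without CsA_PI 3 and 3 or 4 without an ethanol_PI library, and 2 lower without ethanol_PI 2, CsA_US 1, CsA_US 2 or any ethanol_US library or with the replicate block. Ndufb9, of complex I, rose from 28.8, 31.6 and 31.1 CPM to 64.3 and 55.7 CPM (1.02 ± 0.16), and Ndufa5, of the same complex, fell from 39.6, 37.2 and 34.9 CPM to 15.5 and 13.3 CPM (−1.33 ± 0.21). On library totals the medians of 10 of the 52 lists changed sign, all from a small negative value of −0.02 to −0.16. Regulatory T cell markers, 10 in number, counted 4 lower and 1 higher (3 and 0 with all 12 libraries). The lower ones included Gpr83 (35.4, 23 and 33.6 CPM against 2.53 and 5.48 CPM; −2.91 ± 0.43) and Ikzf2, or Helios (−1.19 ± 0.21). Tnfrsf18 went the other way, from 341, 326 and 449 TPM, a level also scaled by transcript length, to 724 and 838 TPM. Of the same list, Il2ra and Capg (0.20 ± 0.22, and −0.01 with all 12 libraries) were not called. The summed level of the list was 1972 to 2216 CPM in ethanol_PI and 1680 and 1847 CPM in CsA_PI 1 and 3. Genes of DNA methylation counted 3 lower and 1 higher of 12, or 3 and 3 with all 12 libraries, 0 higher without CsA_PI 1, 2 higher without ethanol_PI 2, CsA_US 1 or CsA_US 2, 3 higher on library totals. Their share called was 33.3%, beside 22.5% of all genes. The methyltransferase Dnmt3b fell from 42.6, 41.6 and 38.0 CPM to 4.44 and 3.92 CPM (−3.24 ± 0.27; adjusted p = 4.37e-06). The hydroxylase Tet2 fell from 109, 108 and 109.5 CPM to 36.4 and 32.6 CPM (−1.62 ± 0.20).

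Genes without a clear place in these lists were among the largest changes. Slc41a1, a magnesium transporter, fell from 2328, 2146 and 2159 CPM to 74.6 and 80.2 CPM (−4.80 ± 0.30), about its resting mean of 94.5 CPM. Arg1, the arginase better known from macrophages, fell from 55.0, 17.6 and 25.5 CPM to 0.475 and 0.294 CPM (−6.31 ± 0.68). Crabp2, a carrier of retinoic acid, fell from 15.8, 14.4 and 15.4 CPM to 0.158 and 0.489 CPM (−5.53 ± 0.67). Frat2, a regulator of the kinase Gsk3, fell from 49.6, 28.4 and 50.3 CPM to 1.98 and 0.587 CPM (−4.96 ± 0.63, and −4.22 with all 12 libraries). Srgn, the proteoglycan of secretory granules, fell from 7259, 5808 and 6264 CPM to 2062 and 1875 CPM (−1.67 ± 0.18). Angptl2, a secreted angiopoietin-like protein, was at 74.2, 233 and 117 CPM with vehicle, the highest being the library numbered 2, and at 2.69 and 4.40 CPM with CsA (−5.29 ± 0.78, and −4.32 with all 12 libraries, or −4.72 without the 4 libraries numbered 2). Fanci, a DNA repair gene, rose from 1.67, 4.07 and 0.861 CPM to 22.2 and 30.8 CPM (3.58 ± 0.42), near its resting 32.3 CPM. Cables1, a partner of cyclin-dependent kinases, rose from 0.714, 0 and 1.72 CPM to 19.2 and 13.4 CPM (4.41 ± 0.75). Ptgir, the prostacyclin receptor, rose from 0.952, 0.678 and 2.46 CPM to 9.58 and 12.8 CPM (3.09 ± 0.53). Tnfrsf23, a decoy receptor for a death ligand, rose from 4.17, 6.98 and 6.03 CPM to 47.3 and 50.2 CPM (3.12 ± 0.36). Of 1187 long noncoding genes 47 were lower and 78 higher. Mir17hg, the host gene of a microRNA cluster and a target of Myc, fell from 152, 158 and 209 CPM to 17.3 and 27.2 CPM (−2.93 ± 0.38), and 2010016I18Rik rose from 6.19, 6.2 and 7.01 CPM to 34.1 and 41.1 CPM (2.57 ± 0.21). Gm20743, another long noncoding gene, fell from 47.7, 36.9 and 38.6 CPM to 5.94 and 5.38 CPM (−2.82 ± 0.29).

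Set against rest, the lowered genes fell into 3 classes by their CsA level. Of 1683 lower genes at 10 CPM or more, the vehicle-stimulated mean was above every resting vehicle library for 1520 and below for 62. The same vehicle-stimulated libraries enter the call and the level rule, so these numbers lean above rest by selection. CsA_PI 1 and 3 enter the call as well, so the classes by CsA level lean below rest by selection. The share over all genes tested was not counted. The CsA mean was above every resting library for 872, within their range for 341 and below it for 470. Tnf, Ifng, Myc and Rrp9 belonged to the first class, Nfatc1 and Il4 to the second, and Il21, Slamf1, Nr4a2, Rcan1 and Hspa4l to the third. The library labelled CsA_PI 2 was nearer to the vehicle-stimulated mean than to CsA_PI 1 and 3 for 332 of the 1826 lower genes and for 537 of the 1567 higher genes. Its nearness to rest was not counted. A library without the stimulation response can lie on the CsA side for genes that the stimulus moved. These counts therefore do not measure a CsA effect in that library. Genes whose change moved most when CsA_PI 2 was added included Il6ra, a chain of the receptor for interleukin 6. It was at 132, 105 and 111 CPM with vehicle, 31.3 and 27.7 CPM in CsA_PI 1 and 3 and 177 CPM in that library, and its change of −1.94 ± 0.18 went to −0.56 with all 12, without a call. Abcg1, a sterol exporter, was at 23.7, 28.2 and 28.5 CPM with vehicle, at 13.9 and 14.9 CPM in CsA_PI 1 and 3 and at 127 CPM in that library. With it included, the change of −0.86 ± 0.29 became 0.95 without a call, and Abcg1 was also not called on library totals (−0.69) or without CsA_PI 1, CsA_PI 3, any ethanol_PI library, CsA_US 1 or ethanol_US 1. Tdrp, a gene named for testis development, was at 7.14, 2.33 and 3.69 CPM with vehicle, at 22.8 and 28.4 CPM in CsA_PI 1 and 3 and at 136 CPM in that library. Its rise of 2.60 ± 0.35 became 3.85.

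Without stimulation CsA gave 7 calls (0.0465% of genes tested) by edgeR, 852 genes at an unadjusted p under 0.05 and 49 calls by DESeq2. The 6 lower genes were Egr2 (−3.0; adjusted p = 0.00771), Nr4a2 (−1.05), Hspa4l (−1.48) and the interferon-induced GTPase genes Gbp2 (−1.13), Gbp11 (−2.45) and Gm12250 (−1.28). The higher one was Amy2a5, an amylase gene of the pancreas, at 0.0563, 0 and 0 CPM in the resting vehicle and 8.75, 9.29 and 5.24 CPM in the resting CsA libraries. The count was 4 without CsA_US 2, 12 without ethanol_US 3, 1 with the library labelled CsA_PI 2 in the fit, 15 with the replicate number as a block and 0 without the 4 libraries numbered 2. Egr2 went from 79.5, 43.8 and 32.1 CPM to 6.68, 7.88 and 4.64 CPM at rest. Gbp2 fell at rest and rose in stimulated cells (784, 770.4 and 807 CPM against 1011 and 1348 CPM; 0.62 ± 0.17), a rise that was not called with all 12 libraries (0.18) or without CsA_PI 3 or any ethanol_PI library.

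The effect of CsA in stimulated cells was then tested against its effect in unstimulated cells, a comparison in which the 2 effects share no library. The difference was called for 1865 genes (12.4%), 1100 with a lower and 765 with a higher value in stimulated cells, and 1788 of them were also called for CsA in stimulated cells. The test of the difference contains the stimulated comparison, so this overlap is no independent agreement. Without CsA_PI 1 or 3 the count was 1189 and 1094. For Il2 the effects were −6.23 with and −1.95 without stimulation, a difference of −4.28 (adjusted p = 0.000119). Nfatc1 stood at −2.29 and −0.03 (difference −2.26; adjusted p = 4.36e-05) and S1pr1 at 3.47 and 0.46 (difference 3.01; adjusted p = 1.65e-05). Egr2 stood at −3.02 and −3.0, and its difference was not called (−0.02 with a 95% interval of −1.12 to 1.09; adjusted p = 0.991). Il17a and Ccl3 were also not called for the difference (adjusted p = 0.45 and 0.106), with resting levels of at most 0.0589 and 5.95 CPM in the vehicle libraries.

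**Figure D5:**
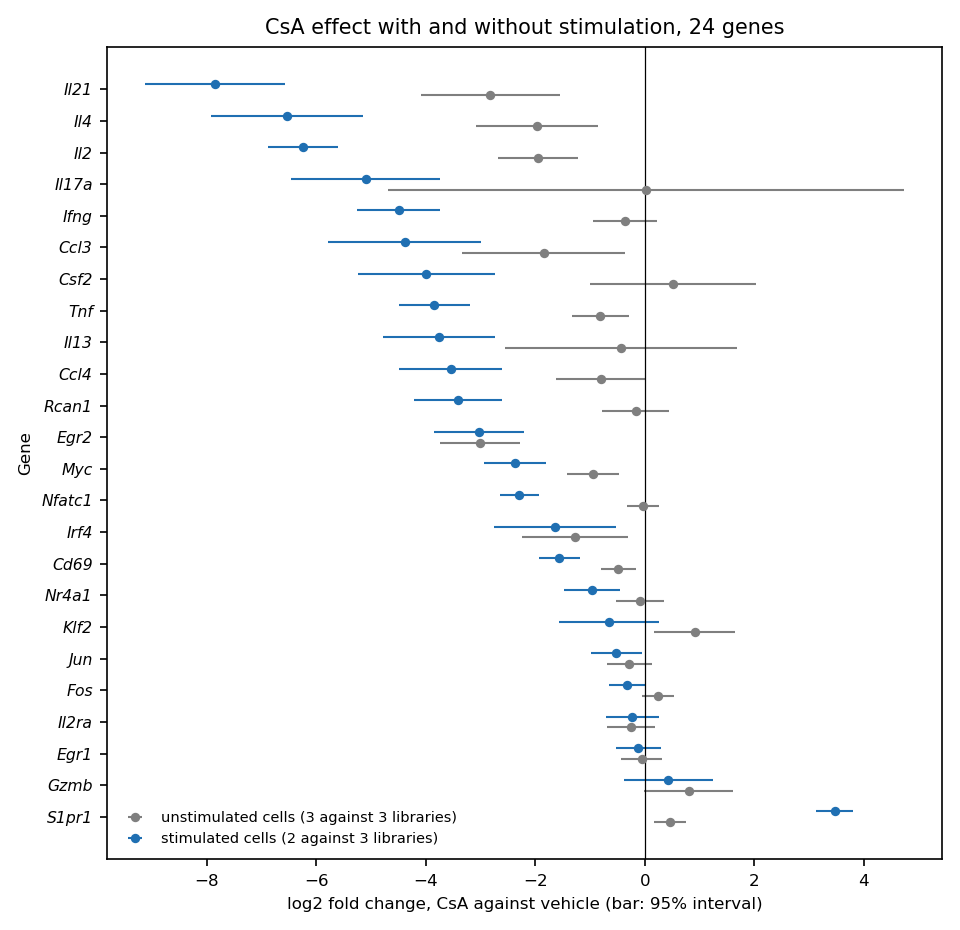
Change with CsA (log2 fold change, bars are 95% intervals) of 24 genes in stimulated cells (blue, 2 against 3 libraries) and unstimulated cells (grey, 3 against 3). For Il21, Il4, Il2, Ifng, Tnf, Nfatc1 and Myc the blue point lies far left of the grey one, for S1pr1 far right, and for Egr2 the points coincide.

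Levels near those of vehicle were also measured with narrow error. The genes of highest count whose interval lay within 0.5 of 0 included H3f3b, a replacement histone, Rpl4, a ribosomal protein, and the kinase Stk17b. H3f3b was at 2074, 1777 and 2159.7 CPM with vehicle and 1835 and 1966 CPM with CsA (change −0.04 ± 0.21, 95% interval −0.49 to 0.42). Rpl4 was at 3508, 2924 and 2969 CPM against 2996 and 2779 CPM (95% interval −0.49 to 0.33) and Stk17b at 1666, 1436 and 1634 CPM against 1357 and 1663 CPM (95% interval −0.43 to 0.37). For these 3 the CsA and vehicle libraries overlapped, and the resting mean of Stk17b was 791 CPM. The cytotoxic protease Gzmb was not called either, at 103, 147 and 111 CPM with vehicle and 176 and 139 CPM with CsA (95% interval −0.39 to 1.24). Its change was −0.16 with all 12 libraries and 0.60, with a call, without the 4 libraries numbered 2. With all 12 libraries their changes were −0.29, −0.23 and −0.31. On library totals the signs of H3f3b, Rpl4 and Stk17b turned, so the intervals bound the size of a change and give no direction.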

How the data were processed

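Each of the 12 libraries came with 1 table of estimated counts and TPM per transcript, deposited by the authors. Cutadapt, kallisto and mm10 are named in the submitters' processing notes, and the versions are not given in the sources used here. Transcripts were joined to genes of GENCODE M21 on mm10 by identifier. Of 109617 transcripts 108214 matched, 92.5% of them with equal length, and the 1403 others, which held 0.494 to 0.628% of the counts, were left out. Estimated counts were summed per gene and rounded, which gave 45321 genes with a matched transcript, whether or not it was counted. The deposited TPM were not used for any test. Kallisto shares reads among near-identical transcripts, so members of gene families such as Ifit, Gbp, Gimap and H2 may be mixed.

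Groups were taken from the sample titles. The quasi-likelihood test of edgeR 4.0.16 (R 4.3.3, TMM scaling, genes kept by filterByExpr with a minimum count of 10 and a minimum total of 15, robust fit) was run on 11 libraries in 4 groups, without the library labelled CsA_PI 2, and adjusted by the Benjamini-Hochberg method over the 15057 genes tested. Levels are TMM-scaled CPM, a scale not divided by transcript length, so they compare a gene between libraries and not genes with each other. The scripts were tested on simulated data. Alternatives were all 12 libraries, only the 5 stimulated libraries, RLE scaling, library totals, no filter on low counts, DESeq2 1.42.0, the replicate number as a block and each library left out. Without the 4 libraries numbered 2 is an alternative chosen after seeing the data.

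Same-numbered ethanol_PI and CsA_PI libraries deviated together (r = 0.165, 0.208 and 0.107 across genes for numbers 1, 2 and 3), and without CsA_PI 2 r was 0.121 for number 1 and 0.044 for number 3. The numbers, which come from the sample titles, were treated as pairs in the blocked fit.

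The lists and the genes named were chosen with earlier results of these data known. The text draws on 25 listed genes, the 15 largest falls and 15 largest rises among called genes at 10 CPM or more without overlap of the groups, up to 4 called and 2 not called members of each of the 52 lists, the 8 largest long noncoding changes, the 6 highest genes called in each direction, the 8 highest genes with a narrow interval near 0 and the 8 moved most by the library labelled CsA_PI 2. Some genes this rule names are not reported here. The genes called in unstimulated cells are all named and were chosen after their values were seen. Promoter windows come from RefSeq on GRCm38.p6.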

Additional observations from a re-analysis of the deposited data

Results flagged for a closer look

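The effect of CsA differed between stimulated and unstimulated cells for 1865 genes by edgeR's test of that difference. Among the 24 genes plotted for it, the difference, stimulated minus unstimulated on the log2 scale, passed the threshold for 12. It was below 0 for the cytokines and chemokine Il21 (−5.03), Il4 (−4.57), Csf2 (−4.50), Il2 (−4.28), Ifng (−4.13), Tnf (−3.03) and Ccl4 (−2.75). It was also below 0 for the calcium pathway genes Rcan1 (−3.24) and Nfatc1 (−2.26), for Myc (−1.41) and for Cd69 (−1.08). It was above 0 for S1pr1 (3.01).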

How the results depend on the processing

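The count of 3393 genes called in stimulated cells was 3318 with all 12 libraries, 3791 with DESeq2, 3792 with a replicate block on the pairing numbers and 3452 without the 4 libraries numbered 2, an alternative chosen after seeing the data. Leaving out 1 library at a time gave 2026 to 3632 calls, 1145 to 1942 lower and 808 to 1690 higher, the lowest ones without CsA_PI 1 or CsA_PI 3. On library totals 1396 were lower and 2267 higher, against 1826 and 1567. The block kept every call named for stimulated cells, and of the counts over all genes it moved the one in unstimulated cells by over 1.5 times, from 7 to 15. That count was 49 with DESeq2, 32 with no filter on low counts, 1 with all 12 libraries, 0 without the 4 libraries numbered 2 and 4 to 12 without single libraries. The count of 1865 differences was 1094 to 1927 without single libraries. Of 131 called genes named for their change, 122 kept the call in every alternative that gave a value. Of 104 counts of members called lower or higher over the lists, 27 moved by over 1.5 times on library totals, 24 with only the 5 stimulated libraries, 23 with all 12, 13 with the block, 13 without those numbered 2, 9 with DESeq2, 8 with no filter and 5 with RLE scaling. Signs turned on library totals for Egr1 (0.06), H3f3b (0.14), Rpl4 (0.10), Rrp1 (0.07) and Stk17b (0.16, and 0.08 without CsA_PI 1 against −0.18 without CsA_PI 3), and with all 12 libraries for Abcg1 (0.95), Klf2 (0.65) and Gzmb (−0.16), where the cause was not tested. The median standard error of a change was 0.32 on the log2 scale, which with 2 CsA libraries leaves changes under 2-fold undetected for many genes.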
